A study of Mus musculus with 93 samples.

Results

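Kdm1a, Rcor1, Rcor2, Hdac1 and Hdac2 encode a histone demethylase and the scaffold and deacetylase partners with which it forms the CoREST complex. They were taken by gene symbol from the gene table, as 5 of its 32640 gene symbols, and each symbol had a single entry. The levels were read in 85 single cells picked by hand from dissociated olfactory epithelium of C57BL/6 mice, a study of how odorant receptor (Olfr) genes come to be expressed as sensory neurons develop. By label, 11 cells are of the Progenitor stage and 9 of the Precursor stage, 27 are called Early Immature Neuron and 13 Late Immature Neuron, and 25 are called Mature Neuron. The labels list 8 further libraries as technical replicates of 8 of these cells. All cells share the strain and carry no stated treatment or allele, and the sources used here do not give the age, sex or number of the mice. Because each library is 1 cell and no animal is named, a stage counts as 1 sample: no test between stages was made, each SD is a spread over cells, and intervals cover counting error only. How a cell came by its stage label is not given, and whether these transcriptomes served for it is not stated.

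Kdm1a, also called LSD1, removes methyl groups from lysine 4 of histone H3, a mark of active promoters and enhancers. Rcor1 and Rcor2 are scaffold proteins of the CoREST family that let the enzyme act on nucleosomes, and Hdac1 and Hdac2 are the histone deacetylases bound to the same scaffold. In olfactory sensory neurons LSD1 is known to be needed for a first receptor gene to be switched on, and its loss after the adenylyl cyclase Adcy3 appears has been linked to keeping that choice. The members were therefore followed over the stages and set, cell by cell, against Adcy3 and the Olfr gene with the highest level in the cell, here called the top Olfr.

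On the mm10 genome, the deposited annotation places Kdm1a (ENSMUSG00000036940.9) on the minus strand of chromosome 4, from 136550540 to 136602723, with 20 exons in its longest transcript. Rcor1 (ENSMUSG00000037896.11) lies on the plus strand of chromosome 12, from 111039351 to 111115901, and Rcor2 (ENSMUSG00000024968.7) on the plus strand of chromosome 19, from 7268301 to 7275225. Each of these scaffold genes has 12 exons in its longest transcript. Hdac1 (ENSMUSG00000028800.9) lies on the minus strand of chromosome 4, from 129516104 to 129542713, and Hdac2 (ENSMUSG00000019777.10) on the plus strand of chromosome 10, from 36974544 to 37001889. No exon of another gene in that annotation overlapped an exon of a member. Hdac1 is the uncertain one: 40.0% of the 31-base words of its GENCODE vM21 transcripts also occur in transcripts of other genes. The largest share, 34.8%, is with Gm10093, itself listed at an FPKM (fragments per kilobase of transcript, scaled to the mapped fragments of the library) of at least 1 in 17 cells and at most at 5.93. The shared words were 0.169% for Kdm1a, 0.424% for Rcor1 and 0 for Rcor2 and Hdac2, so reads of these genes are rarely shared.

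The promoters of Kdm1a and of the scaffold genes Rcor1 and Rcor2 are shown because their levels follow 3 different courses over the stages, described below. Each is the 250 bases before the RefSeq start (build GRCm38.p6, whose chromosomes are those of mm10), written 5′ to 3′ along the gene, and capitals mark the motif matches named below. RefSeq promoters matched 4 of the 5 members; Hdac1 was not matched.
Kdm1a, chr4:136602724-136602973, minus strand: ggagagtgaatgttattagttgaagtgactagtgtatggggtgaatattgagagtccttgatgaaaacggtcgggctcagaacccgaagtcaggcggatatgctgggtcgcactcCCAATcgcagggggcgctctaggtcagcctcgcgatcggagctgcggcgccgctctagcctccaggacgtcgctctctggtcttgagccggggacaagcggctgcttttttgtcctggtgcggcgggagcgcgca
Rcor1, chr12:111039117-111039366, plus strand: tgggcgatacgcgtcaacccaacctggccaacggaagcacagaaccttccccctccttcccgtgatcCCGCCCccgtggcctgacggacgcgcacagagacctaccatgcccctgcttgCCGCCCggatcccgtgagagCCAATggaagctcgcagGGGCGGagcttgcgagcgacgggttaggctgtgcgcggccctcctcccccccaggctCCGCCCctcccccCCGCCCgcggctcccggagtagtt
Rcor2, chr19:7267144-7267393, plus strand: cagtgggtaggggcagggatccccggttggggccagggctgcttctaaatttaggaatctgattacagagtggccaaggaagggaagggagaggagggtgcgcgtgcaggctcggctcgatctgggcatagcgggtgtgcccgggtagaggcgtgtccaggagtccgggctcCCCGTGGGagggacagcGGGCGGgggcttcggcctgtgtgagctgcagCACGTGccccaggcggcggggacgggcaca
The motifs searched on both strands were CANNTG (the E-box of basic helix-loop-helix factors), CCCNNGGG (the core of Ebf sites), TAATTA (bound by homeodomain factors), CCAAT (the NF-Y box) and GGGCGG (the GC box of Sp factors). The Rcor2 window held 1 CANNTG match, CACGTG, at base -30 counted back from the start, and 1 CCCNNGGG match at base -78. Those of Kdm1a, Rcor1 and Hdac2 held neither. The Rcor1 window held 5 GGGCGG matches and 1 CCAAT box, Kdm1a held 1 CCAAT box, Rcor2 and Hdac2 held 1 GGGCGG match each, and no member held TAATTA. Among 32807 promoter windows of the same length, 66.2% held CANNTG, 11.8% CCCNNGGG, 4.85% TAATTA, 33.8% CCAAT and 32.7% GGGCGG. The Rcor2 start in RefSeq lies 907 bases from the start in the deposited annotation, while those of Kdm1a and Hdac2 coincide and that of Rcor1 differs by 16 bases. The share of G and C in the 4 windows went from 59.2% for Kdm1a to 70.4% for Rcor1. Over all windows the median was 52.4% and the upper quartile 61.2%, so Kdm1a alone of the 4 lay below that quartile. A match is a description of the letters, with no measure of binding in these data.

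For a transcript 1 kb long, each FPKM unit was worth 0.556 to 9.83 fragments, with stage medians of 6.13, 6.85, 5.69, 5.08 and 4.19 from Progenitor to Mature Neuron. A gene was called detected at an FPKM of at least 1, which for Kdm1a meant a median of 17.1 fragments but 1.69 in the shallowest library. The median mitochondrial share of all FPKM was 44.4% over Progenitor and 67.0% over Mature Neuron cells. The labelled stages carried their markers: Top2a, a gene of dividing cells, was detected in 10 of 11 Progenitor cells, Neurod1 in 9 of 9 Precursor cells, Gap43 in 25 of 27 Early Immature Neuron cells and Omp in all Late Immature and Mature Neuron cells. The Late Immature Neuron cells had a median FPKM of 1.19 for the immature marker Gap43 and 4584 for the mature marker Omp. In 8 of 11 Progenitor cells and the Precursor cell D179 the neutrophil gene S100a8 or S100a9 reached an FPKM of 100, and Lyz2, a gene of myeloid cells, was detected in 8 Progenitor cells and 1 Precursor cell, while Ptprc and Cd74 were not detected in either stage. At least 2 of 8 sustentacular cell genes reached 100 in 10 cells, 6 of them Mature Neuron cells, and Trp63 of horizontal basal cells was at 0 everywhere. The median summed sustentacular FPKM was 99.5 for Progenitor and 1.44 for Precursor cells, then 1.78 and 15.7 for the immature stages and 601 for Mature Neuron cells. The cells numbered D316 to D434 held every stage, with 3, 5, 19, 6 and 4 cells from Progenitor to Mature Neuron, as did the other cells, with 8, 4, 8, 7 and 21, and values within this number range are given where they differ. All levels are of RNA; no protein or assembled complex was measured.

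Kdm1a RNA was present in nearly every cell before the neuron stages and in few Mature Neuron cells. Detected cells were 9 of 11 in the Progenitor stage (81.8%, with an exact 95% interval by Clopper-Pearson of 48.2 to 97.7) and 9 of 9 Precursor cells (66.4 to 100). The share was 17 of 27 in Early Immature Neuron cells (63.0%, 42.4 to 80.6), 4 of 13 in Late Immature Neuron cells (30.8%, 9.09 to 61.4) and 4 of 25 in Mature Neuron cells (16%, 4.54 to 36.1). Progenitor cells ranged from an FPKM of 0 to 82.3 with a median of 17.7, and Precursor cells from 6.51 to 393.9 with a median of 43.9. Early Immature Neuron cells ranged from 0 to 108 with a median of 16.9. The median was 0.334 in Late Immature Neuron cells, which reached 31.8, and 0 in Mature Neuron cells, which reached 162. Every pair of neighbouring stages overlapped. Of the 27 Early Immature Neuron cells, 16 stood at 10 or more, 1 between 1 and 10, and 10 below 1. Of these 10, 9 were above 0 and 1 was at 0, so a value below 1 does not show that the RNA was absent.

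On the log2(FPKM + 1) scale, the mean Kdm1a level was 3.86 ± 2.33 (SD, n = 11) for Progenitor cells and 5.34 ± 1.55 (n = 9) for Precursor cells. Early Immature Neuron cells had 3.34 ± 2.57 (n = 27), Late Immature Neuron cells 1.45 ± 1.87 (n = 13) and Mature Neuron cells 0.83 ± 1.86 (n = 25). The difference between Progenitor and Mature Neuron cells was -3.03 log2 units, larger than either SD. The differences along the way were 1.49 from Progenitor to Precursor, -2.002 to Early Immature Neuron and -1.89 to Late Immature Neuron. The Precursor excess over Progenitor cells was not seen without the cells that held S100a8 or S100a9, where the difference was -0.01, nor among cells D316 to D434, where it was 0.08. Both checks keep the same Progenitor cells, D330, D337 and D393, since every Progenitor cell with S100a8 or S100a9 lies outside that range. Neutrophil genes and the number range cannot be told apart in Progenitor cells, and their part in the result was not tested.

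Among the scaffolds, Rcor2 was found almost only in Progenitor and Precursor cells. It was detected in 7 of 11 Progenitor cells (63.6%, 30.8 to 89.1), 7 of 9 Precursor cells (77.8%, 40.0 to 97.2) and 1 of 27 Early Immature Neuron cells (3.70%, 0.0937 to 19.0), and in no later cell. Progenitor cells ranged from an FPKM of 0.0572 to 71.4 with a median of 10.3, and Precursor cells from 0 to 53.8 with a median of 19.7. The Early Immature Neuron median was 0, and D332 was the sole cell above 1, at 8.23. In Late Immature Neuron cells the highest value was 0.125, and all 25 Mature Neuron cells were listed at 0. A count of 0 cells, by the rule of 3 counts of the total, allows a share of up to 23.1% of Late Immature and 12% of Mature Neuron cells. Rcor2 was the only member whose Progenitor and Mature Neuron values did not overlap, where 0.739% of the 4467 genes compared had every Mature Neuron cell below every Progenitor cell. The lowest Progenitor value, 0.0572, is itself under the level called detected.

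The mean log2(FPKM + 1) of Rcor2 was 2.99 ± 2.34 (SD, n = 11) in Progenitor and 3.48 ± 1.98 (n = 9) in Precursor cells. In Early Immature Neuron cells it was 0.20 ± 0.63 (n = 27). The step from Precursor to Early Immature Neuron cells was -3.28, and among cells D316 to D434 it was -4.31. Its size rests on the pseudocount, since the later cells are at or near 0: it was -5.57 with a pseudocount of 0.1 and -1.24 with one of 10.

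Rcor1, the other scaffold, was highest in the stage where Rcor2 was all but gone. It was detected in 5 of 11 Progenitor cells (45.5%, 16.7 to 76.6), 7 of 9 Precursor cells (77.8%, 40.0 to 97.2) and 22 of 27 Early Immature Neuron cells (81.5%, 61.9 to 93.7). The counts were 7 of 13 (53.8%, 25.1 to 80.8) and 9 of 25 (36%, 17.97 to 57.5) in Late Immature and Mature Neuron cells. Median FPKM went from 0.611 in Progenitor and 8.21 in Precursor cells to 62.0 in Early Immature Neuron cells, then to 1.87 and 0.368. The spread was wide: 10 Early Immature Neuron cells stood at 100 or more, up to 1108 in D197, while 5 were below 1. The highest Progenitor cell, D172, reached 644, and the highest Mature Neuron cell, D81, reached 171, so all stages overlapped.

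The mean log2(FPKM + 1) of Rcor1 was 3.05 ± 2.38 (SD, n = 9) for Precursor cells and 5.19 ± 3.24 (n = 27) for Early Immature Neuron cells. Late Immature Neuron cells had 2.59 ± 2.38 (n = 13) and Mature Neuron cells 1.204 ± 1.82 (n = 25). The difference from Precursor to Early Immature Neuron cells, 2.14, lay within the SD of either stage and was 0.62 among cells D316 to D434. There, Precursor cells already had a median FPKM of 14.5 and Early Immature Neuron cells 27.3, against 1.56 and 99.3 in the cells outside that range. The step down to Late Immature Neuron cells was -2.60, and -1.45 within the range. The Progenitor mean of 2.64 ± 3.15 (n = 11) leaned on D170 and D172: the difference from Progenitor to Precursor cells was 0.41, and 1.08 without D172. Among cells D316 to D434 that difference was 2.84.

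Set against each other within a cell, the scaffolds had no fixed order before the neuron stages. Of the 8 Progenitor cells with either gene at an FPKM of at least 1, Rcor1 was higher in 4 and Rcor2 in 4, and the counts were the same in Precursor cells. In the 3 neuron stages Rcor1 was the higher in every cell with either gene, 22 of 22, 7 of 7 and 9 of 9 in turn. Rcor2 was detected in 1, 0 and 0 cells of these stages, and in no cell without Rcor1. Every cell counted thus entered through Rcor1, and these counts restate the near absence of Rcor2. Both scaffolds were detected together in 4 Progenitor, 6 Precursor and 1 Early Immature Neuron cell. In D345 (Precursor), for example, Rcor2 stood at 53.8 and Rcor1 at 11.8, and in D424 (Early Immature Neuron) Rcor1 stood at 257 and Rcor2 at 0.

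**Figure D1:**
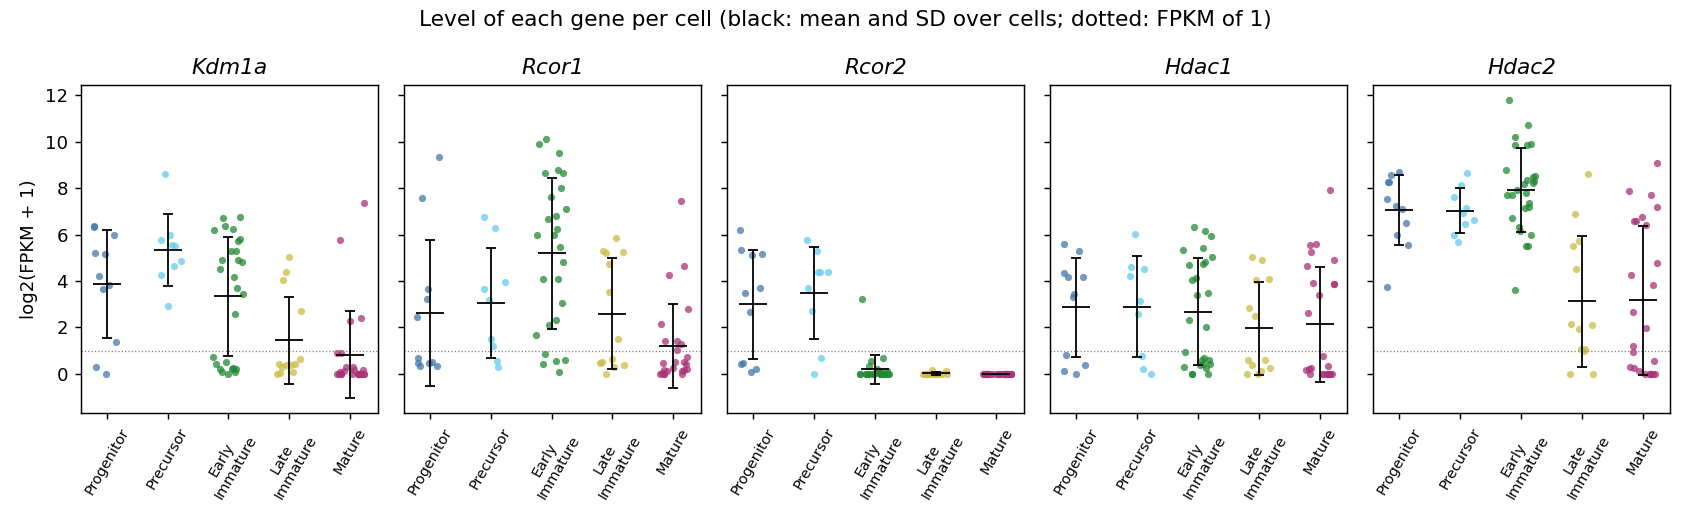
Level of the 5 genes in each of 85 cells, on the log2(FPKM + 1) axis, by stage, with points for cells and black bars for the mean and SD over cells. Rcor2 is near 0 from the Early Immature Neuron stage on, Rcor1 and Hdac2 have their highest means in that stage, and Hdac1 has detected and undetected cells in every stage.

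Hdac2 had the highest median FPKM, a level per length, of the 5 members in every stage, and in the late stages its first-library levels were widely spread. All 11 Progenitor, 9 Precursor and 27 Early Immature Neuron cells had it. Among Late Immature Neuron cells it was 10 of 13 (76.9%, 46.2 to 94.96), and 14 of 25 had it in the Mature Neuron stage (56%, 34.9 to 75.6). Progenitor cells ranged from an FPKM of 12.3 to 409 with a median of 150.8, and Precursor cells from 49.9 to 402 with a median of 122. Early Immature Neuron cells ranged from 11.1 to 3563 with a median of 237. The Late Immature Neuron median was 3.34 and the Mature Neuron median 2.90, with highest values of 395 and 548. The stages overlapped throughout. Of the Mature Neuron cells, 11 were below 1 and 11 at 10 or more, with 3 between. In the second library the Mature Neuron cells D243 and D251 went from 84.6 to 5.77 and from 26.7 to 1.83. Of the Late Immature Neuron cells, D250 went from 21.9 to 2.34, D230 from 1.13 to 11.3 and D233 from 3.45 to 17.4. A cell's place in this spread was thus not fixed, though each stayed at 1 or more.

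The mean log2(FPKM + 1) of Hdac2 was 7.92 ± 1.798 (SD, n = 27) in Early Immature Neuron and 3.12 ± 2.81 (n = 13) in Late Immature Neuron cells. This step of -4.79 exceeded either SD and lay at percentile 0.0965 of the 4144 genes compared between these stages. It was -5.29 among cells D316 to D434. From Progenitor to Mature Neuron cells the difference was -3.88, but -1.25 within that range, where all 4 Mature Neuron cells had Hdac2, at a median FPKM of 102 against 0.942 in the 21 others. From Precursor to Early Immature Neuron cells it was 0.89, 1.25 among cells D316 to D434, and 1.02, 1.09 or 1.05 without D178, D242 or D192 in turn.

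Hdac1, the second deacetylase, was seen in 44% to 66.7% of the cells of every stage, with intervals that overlap, and its level carries the doubt on shared reads given above. It was detected in 7 of 11 Progenitor (63.6%, 30.8 to 89.1), 6 of 9 Precursor (66.7%, 29.9 to 92.5), 15 of 27 Early Immature Neuron (55.6%, 35.3 to 74.5), 6 of 13 Late Immature Neuron (46.2%, 19.2 to 74.9) and 11 of 25 Mature Neuron cells (44%, 24.4 to 65.1). Its median FPKM was 9.76, 7.71, 3.96, 0.532 and 0.284 in the same order. The highest cell of each stage stood at 47.4, 63.2, 79.3, 31.9 and 244.4. The mean log2 difference from Progenitor to Mature Neuron cells was -0.74, below the threshold of 1 log2 unit and within the SD of 2.13 and 2.49. It was -1.03 without D189, -1.02 without D337, and 0.52 among cells D316 to D434. Hdac2 was the higher of the deacetylases in 10 of 11 Progenitor, 8 of 9 Precursor and 26 of 27 Early Immature Neuron cells with either, and in 7 of 10 Late Immature and 13 of 17 Mature Neuron cells.

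Differences of 1 log2 unit or more were common among all genes compared, those detected in 50% or more of the cells of 1 of the stages, so the members' counts are read against that background. From Progenitor to Precursor cells 1 of the 5 members compared was higher (Kdm1a) and 0 lower, where 20.1% of 4321 genes were higher and 21.6% lower. From Precursor to Early Immature Neuron cells 1 of 5 was higher (Rcor1) and 2 lower (Kdm1a and Rcor2), against 22.0% and 28.0% of 4006 genes. From Early to Late Immature Neuron cells 3 of the 4 members compared were lower (Kdm1a, Rcor1 and Hdac2) and 0 higher, where 16.0% of 4144 genes were lower and 32.5% higher. From Late Immature to Mature Neuron cells only Rcor1 and Hdac2 could be compared, and Rcor1 was lower by 1.39 while Hdac2 differed by 0.04 (-3.16 and 3.36 among cells D316 to D434), against 32.7% lower and 4.54% higher of 3835 genes. From Progenitor to Mature Neuron cells 3 of the 4 compared (Kdm1a, Rcor2 and Hdac2) were lower, where 46.3% of 4467 genes were lower and 25.2% higher. A gene could enter a pair through 1 stage alone, which favours a lower level in the other, and this held for all genes compared. Kdm1a and Rcor2 entered this last pair through Progenitor cells alone. Rcor2 into Early Immature, Kdm1a into Late Immature and Rcor1 into Mature Neuron cells likewise entered through the earlier stage alone. With 2 to 5 members compared in a pair of stages, each count is a description of these genes.

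The last 2 of these pairs move with the scaling. When the FPKM of each library were scaled to the same sum outside the mitochondrial chromosome, the median of all genes shifted by -0.41 from Late Immature to Mature Neuron and by -0.37 from Progenitor to Mature Neuron cells. The share of higher genes among those past 1 log2 unit went from 12.2% to 2.31% and from 35.3% to 26.5%. Under this scaling Kdm1a went from -3.03 to -3.12 and Hdac2 from -3.88 to -4.23 between Progenitor and Mature Neuron cells. Hdac1 went from -0.74 to -1.04 there, past the threshold, and Rcor1 from -1.39 to -1.68 between Late Immature and Mature Neuron cells.

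Kdm1a was found together with Rcor1 or Rcor2 and a deacetylase gene mainly before the late stages. The counts below leave out Rcor3, another CoREST subunit gene. It was detected in 2 of 11 Progenitor, 3 of 9 Precursor and 7 of 27 Early Immature Neuron cells. Late Immature Neuron cells had it in 6 of 13, with its highest stage mean, and Mature Neuron cells in 2 of 25. Kdm1a was detected with at least 1 scaffold gene and at least 1 deacetylase gene in 7 of 11 Progenitor cells (63.6%, 30.8 to 89.1) and 8 of 9 Precursor cells (88.9%, 51.8 to 99.7). The counts were 14 of 27 Early Immature Neuron cells (51.9%, 31.9 to 71.3), 1 of 13 Late Immature Neuron cells (7.69%, 0.195 to 36.0) and 0 of 25 Mature Neuron cells (0%, with an exact upper bound of 13.7). All 5 members were detected in 3 Progenitor, 4 Precursor and no later cells. No member at all was detected in 2 Late Immature and 4 Mature Neuron cells. The mean number of members per cell was 3.55 ± 1.29 (SD, n = 11) for Progenitor and 4.22 ± 0.83 (n = 9) for Precursor cells. It was 3.04 ± 0.71 (n = 27) and 2.08 ± 1.26 (n = 13) for Early and Late Immature Neuron cells and 1.52 ± 0.92 (n = 25) for Mature Neuron cells. Such a set was found in 1 Late Immature Neuron cell, D205. D205 had Kdm1a at 19.8, Rcor1 at 25.7, Hdac1 at 4.69 and Hdac2 at 51.1. Its Adcy3 and its Omp were the lowest of its stage. These counts are of first libraries. In the second library the Mature Neuron cell D243 had such a set, with Kdm1a at 111, Rcor1 at 26.7 and Hdac2 at 5.77. So did the Late Immature Neuron cell D230, with Kdm1a at 1.44, Rcor1 at 90.1, Hdac1 at 37.1 and Hdac2 at 11.3. The median number of genes detected per cell was 4788 in Progenitor and 3534 in Mature Neuron cells, and its part in these counts was not tested.

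**Figure D2:**
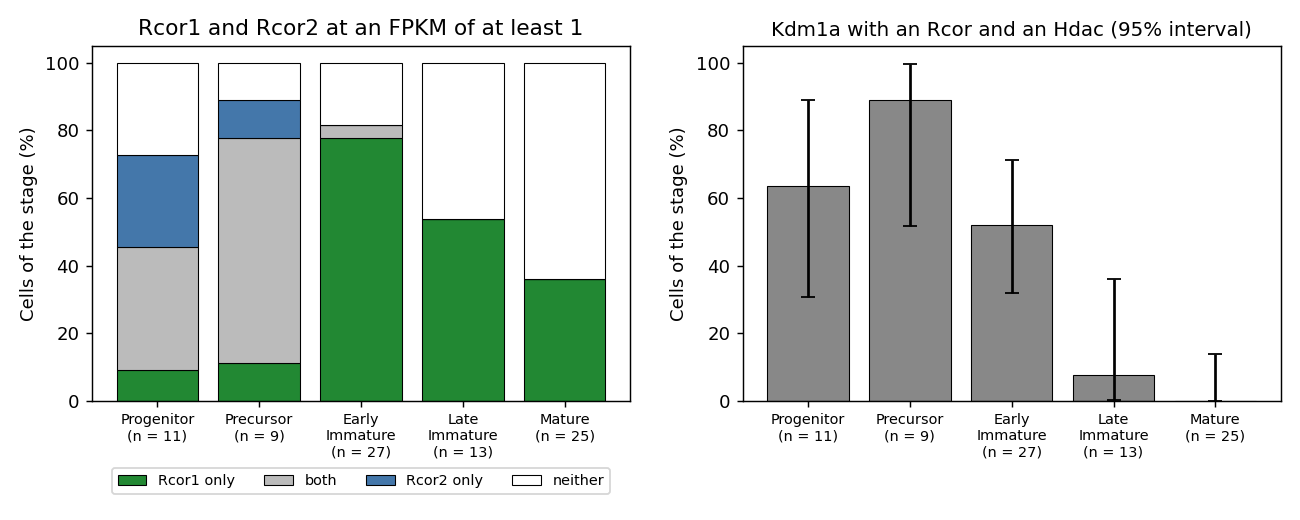
Left, percentage of the cells of each stage with Rcor1 only, both scaffold genes, Rcor2 only or neither at an FPKM of at least 1; right, percentage with Kdm1a, a scaffold gene and a deacetylase gene, with exact 95% intervals. All counts are of first libraries. Cells with Rcor2 only are seen in the first stages alone. Cells with a full set go from 8 of 9 Precursor to 0 of 25 Mature Neuron cells, though D243 had one in its second library.

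Adcy3, the adenylyl cyclase of odorant signalling, was detected in 1 of 11 Progenitor, 2 of 9 Precursor, 14 of 27 Early Immature Neuron, and all Late Immature and Mature Neuron cells. Over the last 3 of these stages its median FPKM was 1.51, 60.6 and 89.9. The Early Immature Neuron stage is thus the one in which both genes vary between cells. There, Kdm1a and Adcy3 were both detected in 7 cells, Kdm1a alone in 10, Adcy3 alone in 7 and neither in 3. Kdm1a was therefore present in 7 of the 14 cells with Adcy3 and in 10 of the 13 without it. At an Adcy3 FPKM of at least 10, Kdm1a was found in 4 cells (D200, D336, D394 and D424) and missing in 3 (D215, D371 and D378). The cell with the most Adcy3 of the stage, D371 at 96.4, had Kdm1a at 0.0613, while D200 had both, with Adcy3 at 39.2 and Kdm1a at 108.

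The order of cells by Kdm1a and by Adcy3 was compared within each stage with Spearman's coefficient, as a description over cells that share depth and number range. It was -0.15 over the 27 Early Immature Neuron cells, where no order was seen. Over the 13 Late Immature Neuron cells it was -0.78, and -0.78 without the 2 cells farthest from the median Adcy3 level, but -0.31 over the 6 cells from D316 to D434. Over the 25 Mature Neuron cells it was -0.46, -0.32 without the 2 farthest cells and -0.26 on scaled values. Most Kdm1a values in these last stages were below 1, so the coefficients partly rank levels that were not called detected.

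Several of the few late cells with Kdm1a had Adcy3 toward the low end of their stage. In Late Immature Neuron cells Kdm1a was found in D230 (31.8), D205 (19.8), D250 (15.5) and D334 (5.45), whose Adcy3 levels held places 4, 1, 2 and 7 from the lowest of 13. None of these 4 cells had Adcy3 at 100 or more, against 4 of the 9 without Kdm1a. In Mature Neuron cells, D433 had Kdm1a at 162 with the second lowest Adcy3 of the stage, 11.4, and D329 had 3.89 with the third lowest, 14.2. D342 had 4.37 with Adcy3 at 78.3, and D232 had 53.1 with Adcy3 at 124, so the pattern had exceptions. These are first libraries: in the second library D230 had Kdm1a at 1.44 with Adcy3 at 158.7, and D243 had 111 with Adcy3 at 142.7, both with high Adcy3. D213, with the lowest Adcy3 of the stage at 5.15, had Kdm1a at 0.844. D230 and D329 were also among the cells with sustentacular genes at an FPKM of 100 or more, Cbr2 at 3764 and 236 and Cyp2g1 at 280.0 and 274.05, whose part was not tested.

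Kdm1a in Mature Neuron cells moved with the number range. It was detected in 3 of the 4 Mature Neuron cells from D316 to D434 and in 1 of the 21 others, D232. Within that range the mean log2 level was 0.65 ± 1.01 (SD, n = 6) in Late Immature and 3.05 ± 3.06 (n = 4) in Mature Neuron cells, a difference of 2.39 where all cells gave -0.62. Rcor1 moved the other way, with 0 of the 4 and 9 of the 21. What the cell numbers stand for is not given in the labels, and the part of the range in these levels was not tested. The 4 cells also had the 4 lowest Pseudotime scores of the Mature Neuron stage in the authors' deposited receptor table, a score without unit: 36.3 in D329, 37.1 in D433, 38.1 in D342 and 38.6 in D316, beside 41.1 in the next cell, D251. Over the 25 Mature Neuron cells, Spearman's coefficient with this score was -0.42 for Kdm1a, -0.25 without the 2 farthest cells, and -0.38 for Hdac2. Number range and score cannot be told apart in these 4 cells, and the score was looked at after the levels were seen. The difference of Kdm1a from Progenitor to Mature Neuron cells was -1.89 within the range.

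**Figure D3:**
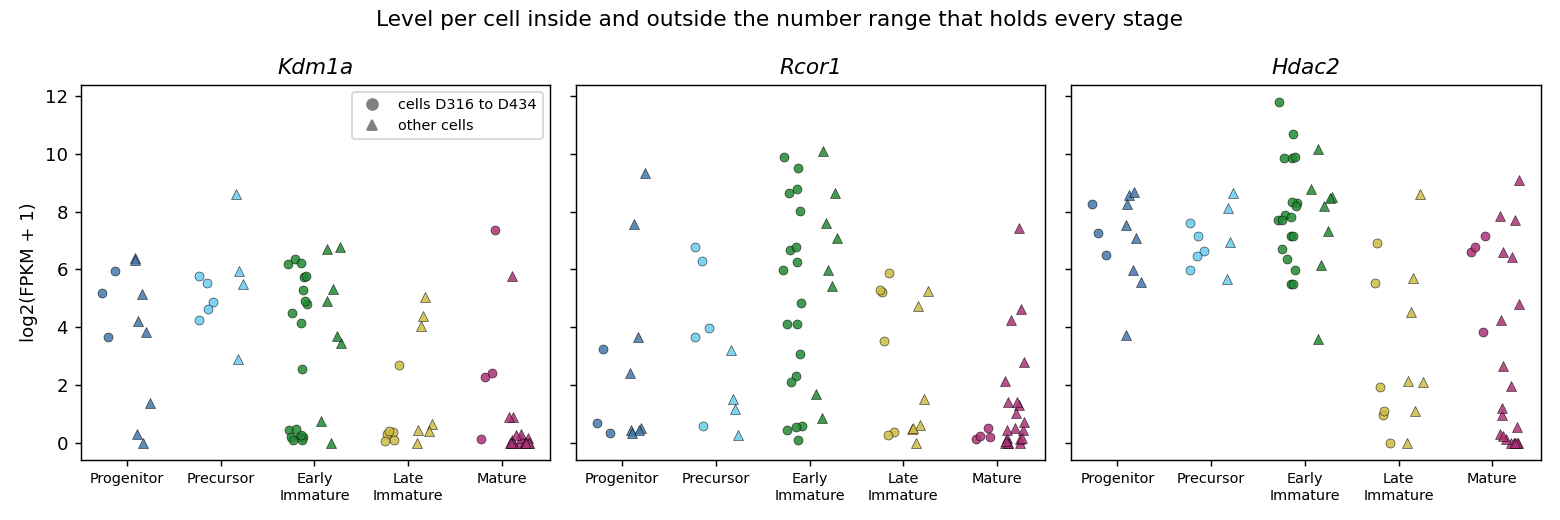
Levels of Kdm1a, Rcor1 and Hdac2 per cell, log2(FPKM + 1), by stage, with circles for cells D316 to D434 and triangles for other cells. Of the 4 Mature Neuron circles, 3 are above an FPKM of 1 for Kdm1a and 4 for Hdac2, while most Mature Neuron triangles are at or near 0 for Kdm1a.

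Against the top Olfr, Kdm1a showed no clear order of cells in the immature neuron stages and a weak negative one in Mature Neuron cells. A top Olfr at an FPKM of at least 100 was present in 24 of 27 Early Immature Neuron cells, 16 with Kdm1a and 8 without. Of the 3 cells with less, D347 had Kdm1a at 26.9, and D215 and D357 were below 1. At a top Olfr of at least 1000, 6 of 10 Early Immature Neuron cells had Kdm1a, beside 11 of the 17 with less. Spearman's coefficient between Kdm1a and the top Olfr was 0.21 over Early Immature Neuron (n = 27), 0.03 over Late Immature Neuron (n = 13) and -0.33 over Mature Neuron cells (n = 25). The Mature Neuron value was -0.16 without the 2 cells farthest from the median receptor level and -0.17 on scaled values. The values with Adcy3 in that stage were -0.32 and -0.26. Kdm1a and a dominant receptor were thus found together in single cells, as in D433, with Olfr1257 at 9156 and Kdm1a at 162. No cell with a top Olfr above 9610, the level in D192, had Kdm1a at an FPKM of 1 or more.

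**Figure D4:**
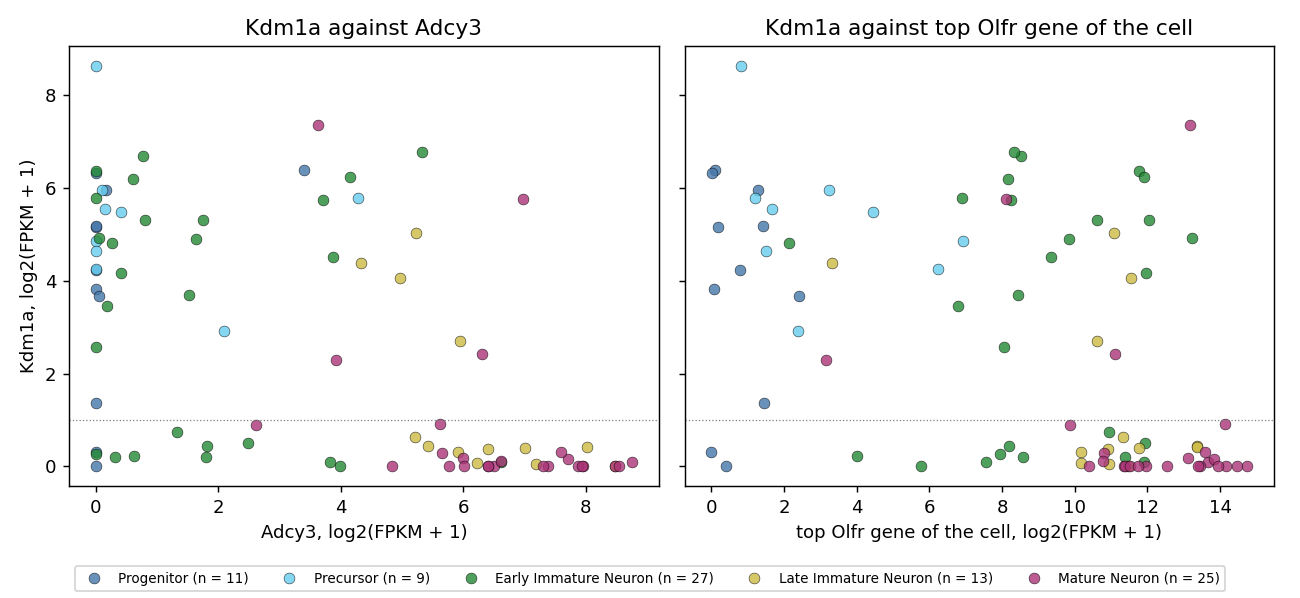
Kdm1a in each of 85 cells against Adcy3 (left) and against the top Olfr of the cell (right), all on the log2(FPKM + 1) axis, coloured by stage, with a dotted line at an FPKM of 1. In these first libraries a single cell with Adcy3 above an FPKM of 100, D232, lies above the line. Cells above the line are seen up to a top Olfr of 9610, in D192, and at no higher top Olfr.

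The partners were read against the same genes. Rcor1 was detected in all 14 Early Immature Neuron cells with Adcy3 and in 8 of the 13 without it, yet its Spearman coefficient with Adcy3 was 0.16 (n = 27). For Hdac2 and Adcy3 the coefficient was -0.04 (n = 27) in the Early Immature Neuron stage and -0.59 (n = 25) over Mature Neuron cells, the latter -0.53 without the 2 farthest cells and -0.40 on scaled values. Hdac2 was found in 3 of the 11 Mature Neuron cells with Adcy3 at 100 or more and in 11 of the 14 with less. These are first libraries, and the Hdac2 levels of D243 and D251 moved in the second, as given above. Hdac1 and the top Olfr gave -0.48 in Mature Neuron cells, and Rcor1 and the top Olfr -0.03.

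Members were also compared with each other inside a stage. In Early Immature Neuron cells Rcor1 and Hdac2 ranked the cells alike, with a Spearman coefficient of 0.70 (n = 27), 0.65 without the 2 farthest cells and 0.76 over the 19 cells from D316 to D434. D332 had the most Hdac2, 3563, with Rcor1 at 954, D373 had 1669 with 721, and D197 had 1158 with 1108. At the other end D192 had Hdac2 at 11.1 and Rcor1 at 0.815. Both genes ran against the number of genes detected, at -0.46 for Rcor1 and -0.53 for Hdac2, whose part was not tested. Kdm1a followed neither, at 0.02 with Rcor1 and 0.05 with Hdac2. In Late Immature Neuron cells Rcor1 and Hdac1 gave 0.80 (n = 13). In Precursor cells Hdac2 gave 0.93 with the mitochondrial share (n = 9).

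The authors' deposited receptor table gives the Pseudotime score for 25 Early Immature Neuron cells, from 10.1 to 35.4, and it was set beside the members after their values were seen. Rcor1 gave a Spearman coefficient of -0.69 with the score and Hdac2 -0.48, each lower in cells placed later, and over the 17 cells from D316 to D434 the values were -0.77 and -0.78. Kdm1a gave 0.22. The score may have been computed from these same levels. Kdm1a and the growth cone gene Gap43 gave 0.43 in the 27 Early Immature Neuron cells and 0.54 in the 25 Mature Neuron cells, though no Mature Neuron cell had Gap43 at 1 or more. Gap43 was above 0 only in D243 and the 4 Mature Neuron cells from D316 to D434, at 0.557 to 0.893. The part of the number range in this value was not tested.

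The second libraries give the measurement error as far as both libraries hold the same cell. The labels call them technical replicates, but the top Olfr differed between the libraries of D187, D200 and D230, so for these 3 cells that is not settled. The same call, detected or not, was made in both libraries of 6 of 8 cells for Kdm1a, 5 for Rcor1, 7 for Rcor2, 5 for Hdac1 and 8 for Hdac2. Kdm1a stood at 108 and 109 in the libraries of D200, but at 10.002 and 140.2 in D187, 31.8 and 1.44 in D230, 15.5 and 0.438 in D250, and 0.130 and 111 in D243. Of the 4 Late Immature Neuron cells with Kdm1a, D230 kept it at a low level and D250 did not keep it in the second library, while the Mature Neuron cell D243 had it there alone. For Hdac2, D200 had 357.1 and 355.2, while D243 had 84.6 and 5.77. The median absolute difference on the log2(FPKM + 1) scale was 2.23 for Kdm1a, 0.88 for Rcor1, 0 for Rcor2, 0.56 for Hdac1 and 2.29 for Hdac2. The largest were 6.63, 5.89, 1.13, 5.25 and 3.66. Adcy3 in D200 was 39.2 and 0.584, so one of the 4 Early Immature Neuron cells with Kdm1a and Adcy3 at 10 or more did not keep the pair. The top Olfr was the same gene in both libraries of 5 of these 8 cells. In D187 and D200 the top Olfr of the first library was listed at 0 in the second, and in D230 it stood at 2152 and 1232, behind another receptor. Of the genes detected in a first library, 44.9% to 68.5% were detected in the second. With the second library in place of the first, the Kdm1a difference from Late Immature to Mature Neuron cells was 0.21 in place of -0.62, neither past 1 log2 unit.

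**Figure D5:**
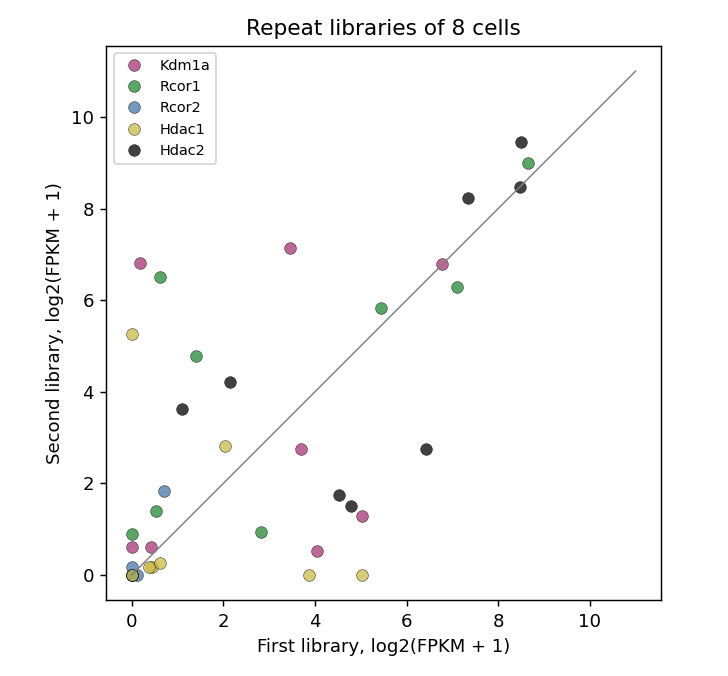
First against second library of the 8 cells with a technical replicate, for the 5 genes, on log2(FPKM + 1) axes with the line of equality. Points far from the line are cells whose libraries differ, such as Kdm1a in D243 (0.130 and 111).

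The genes most alike to each member over all 85 cells were named by Spearman's coefficient among genes detected in at least 20 cells, a likeness that pools the stages and so mostly follows them. For Kdm1a they were Ly6e (0.64), Pebp1 (0.64) and Insm1 (0.64), the last a zinc finger factor of neurogenesis known to bind the demethylase. Insm1 had mean log2 levels of 4.37, 4.49, 3.30, 0.70 and 0.83 from Progenitor to Mature Neuron, beside 3.86, 5.34, 3.34, 1.45 and 0.83 for Kdm1a. For Rcor2 they were Gadd45g (0.79), a stress and differentiation gene, Mdk (0.76), a growth factor, and Rbm24 (0.76), an RNA-binding protein. For Rcor1 they were Crabp1 (0.62), Trim46 (0.60) and Arl14epl (0.60), of which Trim46 had its highest mean, 3.51, in Early Immature Neuron cells. For Hdac2 they were Zfp423 (0.62), Tubb2b (0.62) and Dpysl3 (0.61), and for Hdac1 Nop10 (0.45), Crebzf (0.43) and Dnal1 (0.43). Among members, Rcor2 gave 0.48 with Kdm1a, Hdac2 0.38, Rcor1 0.19 and Hdac1 0.14. Adcy3 stood at the far end for Kdm1a, at -0.60, place 5891 of 5893 genes. This was not particular to Kdm1a. Adcy3 gave -0.65 with Rcor2 (place 5858 of 5894), -0.54 with Hdac2 (5871 of 5893) and -0.27 with Hdac1 (5864 of 5893). With Rcor1 it gave -0.27, at place 5567 of 5893.

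The other genes of this chemistry were followed in 9 lists of 78 genes. Between Progenitor and Mature Neuron cells 30 could be compared, of which 23 were lower by at least 1 log2 unit and 0 higher, where 46.3% of all genes were lower and 25.2% higher. A gene could enter through Progenitor cells alone, which favours a lower Mature Neuron level, and this held for all genes compared. Sap30 was detected in 7 of 11 Progenitor and 0 of 25 Mature Neuron cells, and Zmym2 in 6 and 3. Dnttip1 and Gatad2a entered through Mature Neuron cells, with 4 and 13 and with 5 and 16. Hdac9 and Hdac11, higher in Mature Neuron cells, were at 12 of 25 there and so were not compared. Lower were 3 of 3 compared CoREST subunits (Zmym2, Phf21a and Ctbp1), 5 of 8 genes of the Sin3 complex, 6 of 7 of the NuRD complex and 4 of 4 of the NCoR complex, all assemblies that carry histone deacetylases. Their median differences were -1.40, -1.44, -1.45 and -1.68, against -0.81 over all genes compared. Among cells D316 to D434 the lower genes were 4 of 6, 2 of 7, 4 of 7 and 1 of 3 compared in the same order, where 35.5% of 6484 genes were lower. The higher genes there were 1, 1, 0 and 0. The deacetylase Hdac3, the enzyme of the NCoR complex, went from a mean log2 level of 6.32 ± 1.77 (SD, n = 11) in Progenitor to 1.65 ± 2.63 (n = 25) in Mature Neuron cells. Sap30 of the Sin3 complex went from 3.63 ± 2.73 to 0.01 ± 0.04, and Mbd3 of the NuRD complex from 4.81 ± 2.37 to 2.0003 ± 2.67.

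Subunits of the enzymes that write the mark Kdm1a removes were followed in the same way. Of the H3K4 methyltransferase list 5 genes could be compared, and 3 were lower: Ash2l, at 4.83 ± 1.74 (SD, n = 11) in Progenitor and 0.40 ± 0.64 (n = 25) in Mature Neuron cells, with Rbbp5 (-2.35) and Wdr5 (-1.67). The subunit Dpy30 differed by -0.83 and the methyltransferase Kmt2a by -0.19. All of these but Dpy30 entered through Progenitor cells alone, which favours a lower Mature Neuron level. Among cells D316 to D434, 2 of 5 compared genes of this list were lower and 0 higher, where 35.5% of 6484 genes were lower. The median of this list was -1.67. Among recruiting transcription factors only Insm1 could be compared, at -3.54, and it too entered through Progenitor cells alone. No gene of the other H3K4 demethylase list was detected widely enough in these stages. Outside the genes compared, and named after their values were seen, the deacetylase genes Hdac11 and Hdac9 had higher means in Mature Neuron cells. Hdac11 went from 0.02 to 2.37, detected in 0 of 11 Progenitor and 12 of 25 Mature Neuron cells, and Hdac9 from 0.58 to 2.23, detected in 2 of 11 and 12 of 25. Dnttip1, the scaffold of the MiDAC complex, had 1.93 ± 2.38 and 2.09 ± 2.30. Over the other pairs, list genes were higher in 4 and lower in 13 of 34 from Progenitor to Precursor, beside 20.1% and 21.6% of all genes compared. From Precursor to Early Immature Neuron the counts were 4 and 11 of 29, beside 22.0% and 28.0%. From Early to Late Immature Neuron they were 5 and 4 of 25, beside 32.5% and 16.0%, and from Late Immature to Mature Neuron cells 0 and 11 of 21, beside 4.54% and 32.7%.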

How the data were processed

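Gene levels were read from the deposited table of 93 libraries, whose values are FPKM computed by the authors with Cufflinks 2.2.1 on mm10, per the submitters' processing notes, which also name CASAVA 1.8.2, Trim Galore, cutadapt 1.2.1 and TopHat2 2.0.14. Per the labels' protocols, cDNA was primed with oligo(dT), amplified by PCR and made into libraries with a kit that does not mark strand. The Pseudotime score came from the authors' deposited receptor table, and gene positions from the deposited annotation. The first library of each of 85 cells was used (Python 3.11.15, pandas 2.3.3, numpy 2.4.6, scipy 1.17.1, matplotlib 3.10.9), and the 8 repeats served only as a check of the measurement error.

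Detection means an FPKM of 1 or more. Stage differences are of mean log2(FPKM + 1), the pseudocount of 1 understating changes of low genes, over genes detected in 50% or more of the cells of 1 of the stages, and count as higher or lower from 1 log2 unit. Shares carry exact Clopper-Pearson 95% intervals, and the limit for a count of 0 is 3 counts of the total. The fragments behind a value were recovered from the steps between low FPKM values and cover counting error only. PCR copies without molecular identifiers are not independent molecules. The code was tested on simulated data.

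Named genes are the members, Adcy3, the top Olfr, the 3 genes most alike to each member (leaving out Olfr, Gm, Rik, ribosomal protein and mitochondrial genes), and up to 4 genes per list with the largest difference between Progenitor and Mature Neuron cells. The lists were CoREST subunits, recruiting transcription factors, Sin3 complex, NuRD complex, MiDAC complex, other histone deacetylases, NCoR complex, H3K4 methyltransferases and other H3K4 demethylases. Members and lists were chosen with earlier results of these data known. Alternatives covered the pseudocount, scaling, detection level, number range, second libraries, marked cells and each cell left out.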

Additional observations from a re-analysis of the deposited data

Results flagged for a closer look

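Among the 10 groups of 4 to 10 values examined, 1 value lay far from the others of its group. It was the Rcor2 difference between the libraries of the Early Immature Neuron cell D244, 1.13 on the log2(FPKM + 1) scale, where Rcor2 stood at an FPKM of 0.626 in the first library and 2.57 in the second. The other 7 repeated cells differed by at most 0.184 in size, and 5 of them were at 0 in both libraries. For normally distributed values chance picks out about 1 in 20 groups by this measure. That rate does not hold for this group, in which 5 differences are exactly 0.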

How the results depend on the processing

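Of 250 stage differences recomputed under other settings, 6 moved by more than 1 SD over cells, and 1 of at least 1 log2 unit changed sign; all 850 values with 1 cell left out moved by less than 1 SD. A further 25 changed sign from values under 1 log2 unit, the largest 0.74, and so carry no direction, among them Hdac1 from Progenitor to Mature Neuron, Kdm1a from Late Immature to Mature Neuron and Rcor2 from Progenitor to Precursor (0.49, and -0.33 without S100a8 or S100a9 cells). The value of at least 1 log2 unit was Kdm1a from Progenitor to Precursor, -0.00535 without cells holding S100a8 or S100a9. Among cells D316 to D434, Kdm1a and Hdac2 differed by 2.39 and 3.36 from Late Immature to Mature Neuron. Rcor2 rested on the pseudocount: -5.57 (0.1) and -1.24 (10) from Precursor to Early Immature Neuron, and with 0.1 also -0.15 from Late Immature to Mature Neuron and -5.54 from Progenitor to Mature Neuron. With a pseudocount of 10, Kdm1a came to -0.99 and -0.96 for its steps into Early and Late Immature Neuron cells, on a compressed scale.

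Kdm1a was found in 88.9%, 76.9% and 40% of Early Immature, Late Immature and Mature Neuron cells when detected at an FPKM of 0.1. It was found in 100% of Progenitor cells within D316 to D434, the same 3 cells that remain without S100a8 or S100a9 cells. Within that range it was found in 75% of Mature Neuron cells. Cells with Kdm1a, a scaffold and a deacetylase numbered 3, 5, 9 and 0 there, from Progenitor to Late Immature Neuron, since fewer cells were counted. Early Immature Neuron cells with Kdm1a and Adcy3 numbered 4 within the range and 4 when detected at 10, and those with Kdm1a and a top Olfr 10 within the range and 6 at a top Olfr of 1000. No paired analysis was possible because no test between stages was made and each library is 1 cell. The shallowest libraries limit what an FPKM below 1 can show, and no alternative separates the stages from the animals, which are not named.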
